A study of Mus musculus with 17 samples.

Results

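Metastatic niche factors are secreted proteins of an organ that make it more or less permissive for tumour cells arriving from elsewhere. The genes of 10 such factors were followed here in whole mouse lung: Saa3, Prok2, Angptl4, Fn1, Vcan, Tnc, Postn, Thbs1, Lox and Serpinb2. They were chosen by symbol, from what is known of them in lung metastasis and with earlier results of these data known. All 10 were found among the 54146 genes of the files. All 10 also passed the filter on low counts, which left 19557 genes to test. By edgeR's quasi-likelihood test, no member was called at an adjusted p under 0.05 between Clic4 knockout and wild-type lungs, on either day, or between days, whereas DESeq2 called Serpinb2 between days in wild-type lungs.

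The series compared lungs of mice labelled as knockouts (KO) of Clic4, a chloride intracellular channel gene, with lungs of wild-type mice (WT), both labelled strain FVB/6DT1, at day 14 and at day 0. The title of the series places the work in host competence for breast cancer metastasis, and 6DT1 names a cell line from a mammary tumour of the mouse. The labels are silent on any treatment or tumour inoculation of the mice between the time points. There were 5 KO day 14, 6 WT day 14, 2 KO day 0 and 4 WT day 0 libraries of total RNA, and the series' design text gives other group sizes, so the labels of the samples were followed. Ages were 8 weeks at day 14 and 6 weeks at day 0, so that day and age change together and cannot be told apart. The labels give neither the Clic4 allele nor whether each library is a separate animal, and p-values therefore rest only on how far the libraries of a group spread, a spread that may be partly technical. The numbers that end the sample titles are lower in every WT than in every KO library. Within each genotype they are also lower in every day 0 than in every day 14 library. Any order of handling that follows them would thus follow both genotype and day. The numbers that open the titles do not separate the genotypes, but in WT they are lower in every day 0 than in every day 14 library.

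Total counts ran from 20607760 to 35743766 per library. Levels are given as CPM, the count of a gene per 1000000 counts of its library, scaled by the trimmed mean of M values (TMM). Clic4 itself averaged 336 ± 38.6 CPM in KO day 14 lungs and 1043 ± 154 CPM in WT day 14 lungs, and 326 ± 2.17 CPM in KO day 0 lungs and 943 ± 13.1 CPM in WT day 0 lungs (SD, n = 5, 6, 2 and 4), and the KO and WT ranges did not overlap on either day. Clic4 counts thus remained in every KO library, at 301.5 to 399.1 CPM at day 14 and at 324.4 and 327.5 CPM at day 0. Genes of lung cell types were abundant in every library, and the surfactant and other alveolar type 2 genes summed to between 17510 and 25500 CPM. Of 8 genes listed as mammary epithelial markers, 7 were detected, and the list summed to 279 to 330 CPM in KO day 14, 284 to 389 CPM in WT day 14, 315 and 321 CPM in KO day 0 and 285 to 350 CPM in WT day 0 lungs. Keratins and Epcam of that list are also known from lung epithelium. Its Krt14 ran from 1.127 to 2.706 CPM in KO day 14 lungs and from 0.2994 to 0.8495 CPM in WT day 14 lungs. At day 0 Krt14 was also higher in KO (0.9529 to 1.675 CPM) than in WT lungs (0.481 to 0.6096 CPM). Krt5 of the same list overlapped at day 14, at 0.2967 to 1.942 CPM in KO and 0.09952 to 2.805 CPM in WT lungs. The milk protein gene Wap was at 0 in every library and Csn3 did not exceed 0.133 CPM. The part of mammary cells in the members' values was not tested. These are bulk measurements, in which fewer cells of a type and less RNA per cell cannot be told apart.

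In the metastatic niche, signals from a primary tumour are known to change a distant organ before or while tumour cells settle there. In the lung, inflammatory ligands call in myeloid cells, matrix proteins such as fibronectin, tenascin C, periostin and versican give those cells and the tumour cells a substrate, lysyl oxidase stiffens that matrix by crosslinking collagen, and vessel and protease factors govern entry and survival. Thrombospondin 1 stands apart in this group, since it is known as an inhibitor of metastatic growth in the lung.

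Of the 10 members, 3 had an unadjusted p under 0.05 between days (edgeR). They were Serpinb2 and Prok2 in WT lungs, where 9.06% of all genes had such a p, and Tnc in KO lungs, where 9.05% had. The 250 bases before the start sites of these genes are shown, although edgeR called none of them. They come from RefSeq (GRCm38.p6), whose table held 6 of the 10 members, and run 5′ to 3′ on the strand of the gene. Capitals mark matches, on either strand, to the searched motifs TATAAA (core promoter box), TGANTCA (AP-1 site), TGACGTCA (cAMP response element), TTGCNNAA (C/EBP-type site) and GGGNNTTCC (NF-kB-like site).
Serpinb2, chr1:107511173-107511422, plus strand: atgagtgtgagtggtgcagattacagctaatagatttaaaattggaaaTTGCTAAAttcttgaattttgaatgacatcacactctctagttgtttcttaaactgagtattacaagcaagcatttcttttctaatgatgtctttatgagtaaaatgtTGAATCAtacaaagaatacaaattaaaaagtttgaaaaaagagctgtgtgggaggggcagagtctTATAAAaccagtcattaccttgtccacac
Prok2, chr6:99726393-99726642, minus strand: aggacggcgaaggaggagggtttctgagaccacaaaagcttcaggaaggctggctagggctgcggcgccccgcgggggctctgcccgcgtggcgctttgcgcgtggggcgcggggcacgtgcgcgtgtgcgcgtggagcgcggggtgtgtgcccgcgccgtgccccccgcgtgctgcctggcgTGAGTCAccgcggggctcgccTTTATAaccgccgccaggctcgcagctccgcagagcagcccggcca
Tnc, chr4:64047016-64047265, minus strand: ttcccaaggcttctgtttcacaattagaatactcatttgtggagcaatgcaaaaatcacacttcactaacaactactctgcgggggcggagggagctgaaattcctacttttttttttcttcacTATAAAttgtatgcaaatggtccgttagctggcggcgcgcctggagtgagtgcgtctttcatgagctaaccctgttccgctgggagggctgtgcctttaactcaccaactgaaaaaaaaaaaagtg

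The Serpinb2 window held TATAAA at bases -29 to -24 from the start site, an AP-1 match (TGAATCA) at -94 to -88 and a C/EBP-type match at -202 to -195. The Prok2 window held the same motif on the opposite strand (TTTATA) at -46 to -41 and an AP-1 match (TGAGTCA) at -67 to -61. The Tnc window held 1 match, TATAAA at -126 to -121. Among 32851 RefSeq promoter windows of the same length, 12.4% held TATAAA, 6.75% held the AP-1 motif, 1.55% the cAMP response element, 9.56% the C/EBP-type motif and 4.98% the NF-kB-like motif. The table lists a second start site for Serpinb2 and for Tnc, and the windows shown are those of the start that equals the GENCODE start of the gene. Counted from the other Serpinb2 start, the window held the same TATAAA at -116 to -111 and the same AP-1 match at -181 to -175, and a different C/EBP-type match at -19 to -12. From the other Tnc start, the same TATAAA lay at -205 to -200. None of the matches overlapped another, and a match describes letters, not a site that was measured.

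The members covered a wide range of abundance in these lungs. On the scale of FPKM, which divides by transcript length and so allows levels of different genes to be set side by side, periostin (Postn) was the most abundant member at 154 ± 13.3 and fibronectin (Fn1) followed at 133 ± 19.7 (mean ± SD of 17 libraries). Thbs1 averaged 49.6 ± 20.7 FPKM, Angptl4 24.5 ± 13.3 FPKM, Lox 23.3 ± 6.10 FPKM and Saa3 13.03 ± 6.10 FPKM. The lower end held Tnc at 4.57 ± 1.64 FPKM, Vcan at 2.22 ± 0.925 FPKM, Serpinb2 at 0.531 ± 0.308 FPKM and Prok2 at 0.183 ± 0.391 FPKM. Only Fn1 and Thbs1 were neighbours in this order whose ranges over the 17 libraries lay apart. Angptl4 exceeded Lox in 9 of 17 libraries, and these neighbours did not differ beyond their spread. Postn exceeded Fn1 in 14 of 17 libraries, and each other neighbour pair kept its order in 15 to 17 of 17 libraries with overlapping ranges.

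**Figure D1:**
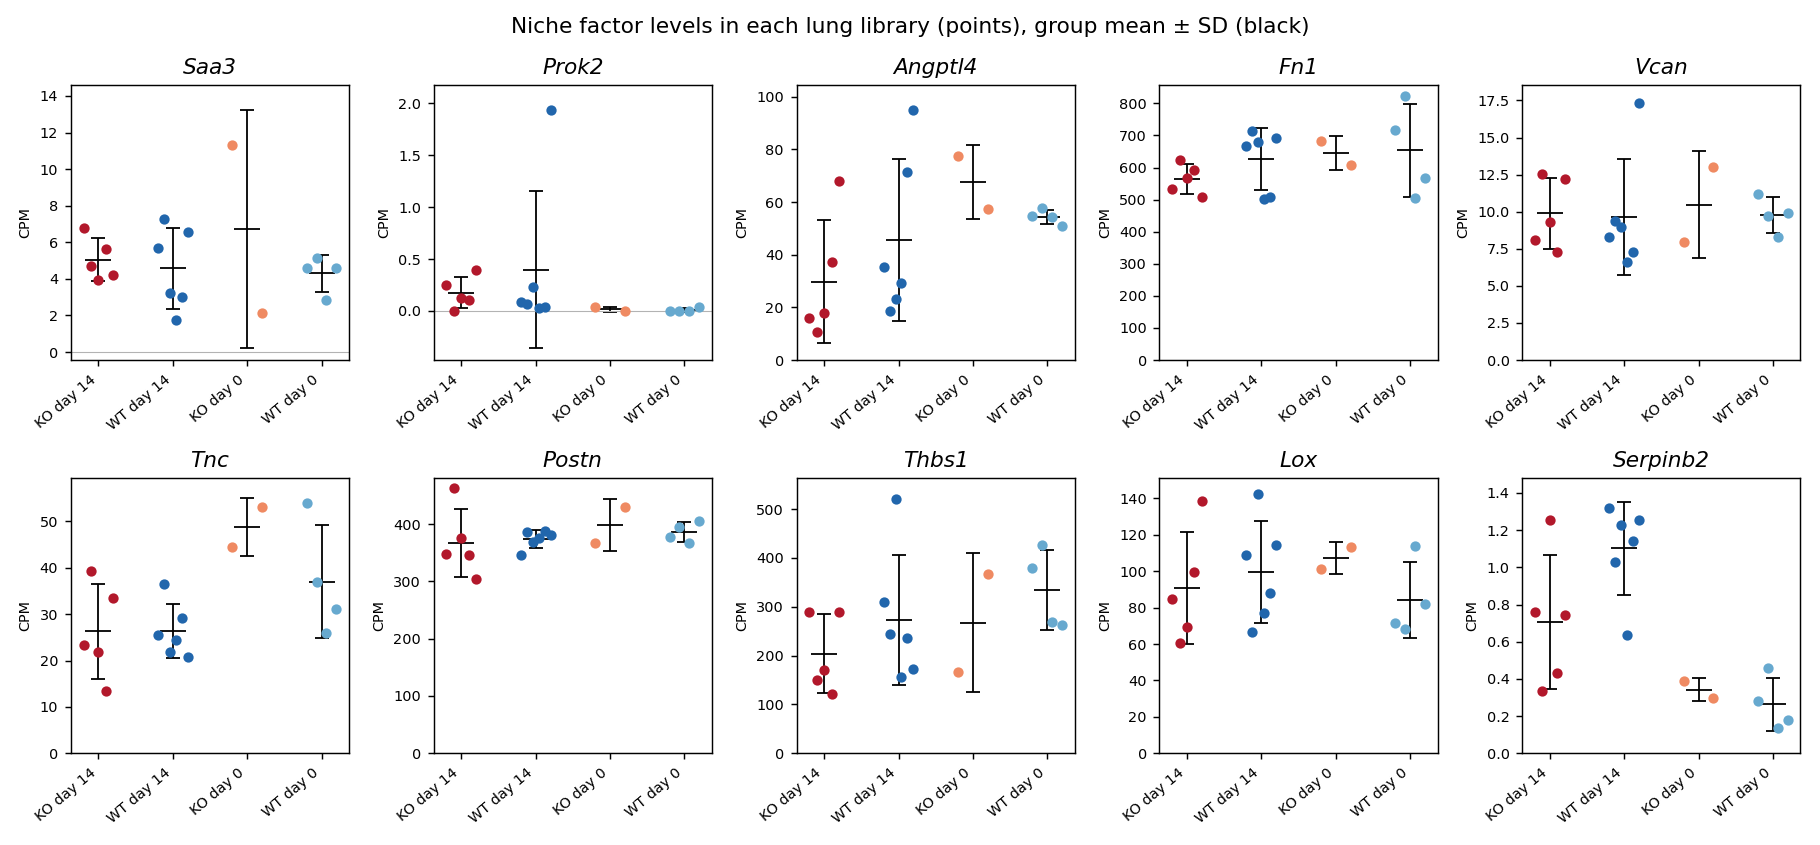
Level of each niche factor in CPM (linear axis, each panel with its own scale). Points are single libraries of KO day 14, WT day 14, KO day 0 and WT day 0 lungs, and black bars give the group mean ± SD. Serpinb2 is the member whose WT day 14 libraries (0.639 to 1.32 CPM) all lie above the WT day 0 libraries (0.136 to 0.457 CPM), and 1 WT day 14 library holds most of the Prok2 counts, at 1.94 CPM.

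The members also differed in how much they varied between libraries of 1 group. The within-group SD of log2 CPM was 0.14 for Postn and 0.22 for Fn1, and it reached 0.72 for Saa3, 0.83 for Angptl4 and 1.20 for Prok2. Because scatter depends on the level of a gene, each member was placed among the 500 genes nearest to it in mean level. Angptl4 varied more than 99.6% of those neighbours, Saa3 more than 99.2%, Thbs1 more than 98.4%, Tnc more than 97.8% and Lox more than 96.6%, with 94.0% for Vcan, 88.4% for Fn1 and 87.4% for Prok2. Postn, the member with the smallest SD, still varied more than 74.8% of its neighbours, and Serpinb2 had the lowest such percentile of the 10 members, 72.2%.

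The comparison of KO with WT lungs asks whether loss of Clic4 changes the niche genes of the host lung. At day 14, 0 of 10 members were called by edgeR's quasi-likelihood test (adjusted p from 0.587 to 0.996), against a background of 0.107% of all genes tested, which is 21 genes. No member had an unadjusted p under 0.05, DESeq2 and limma-voom also called 0 members (backgrounds 0.558% and 0.0818%), and the KO and WT ranges lay apart for 0 of 10, against 0.977% of all genes. The log2 fold changes of KO over WT at day 14 were below 0 for 8 members and above 0 for 2, with a median of -0.14 against 0.00 over all genes tested. At day 0, with 2 KO libraries, 0 of 10 members were called (adjusted p from 0.850 to 0.994), against a background of 0.0256% or 5 genes, and again none had an unadjusted p under 0.05 or was called by DESeq2 or limma-voom (backgrounds 0.133% and 0.0153%). The ranges lay apart for 0 of 10 members at day 0, against 18.0% of all genes. The day 0 estimates were above 0 for 8 members, with a median log2 fold change of 0.33 against 0.00 over all genes tested. They all rest on the same 2 KO libraries, and the signs were not tested as a set.

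The comparison of day 14 with day 0 asks what differed between the time points within a genotype, and it shares its libraries with the comparisons of genotype. By edgeR, 0 of 10 members were called in WT lungs and 0 of 10 in KO lungs, against a background of 0.0% of genes in each, since 0 genes passed in either. At an unadjusted p under 0.05 the counts over all genes were 1772 in WT and 1770 in KO lungs, and DESeq2 called 113 and 93 genes where limma-voom called 1 and 0. Among the members, 2 had an unadjusted p under 0.05 in WT lungs (Serpinb2 and Prok2), against 9.06% of all genes, and 1 in KO lungs (Tnc), against 9.05%. DESeq2 called 1 member in WT lungs, Serpinb2, against 0.669% of the genes it tested, and none in KO lungs, against 0.539%. It gave Prok2 no adjusted p between days or for the interaction, so that it tested 9 of the 10 members there. limma-voom called 0 members in both, against 0.00511% in WT and 0.0% in KO lungs. The difference between the KO effects at day 14 and at day 0, tested as an interaction, was called for 0 of 10 members and for 0.0% of genes (890 genes had an unadjusted p under 0.05, DESeq2 called 9 genes or 0.047%, none of them a member, and limma-voom 0). All 10 interaction estimates were negative, with a median of -0.45 on the log2 scale against 0.005 over all genes tested. They all rest on the same 2 KO day 0 libraries, and the signs were not tested as a set. No member had an unadjusted p under 0.05 for the interaction. The interaction estimates of Saa3, Vcan and Thbs1 were positive with limma-voom and with FPKM.

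**Figure D2:**
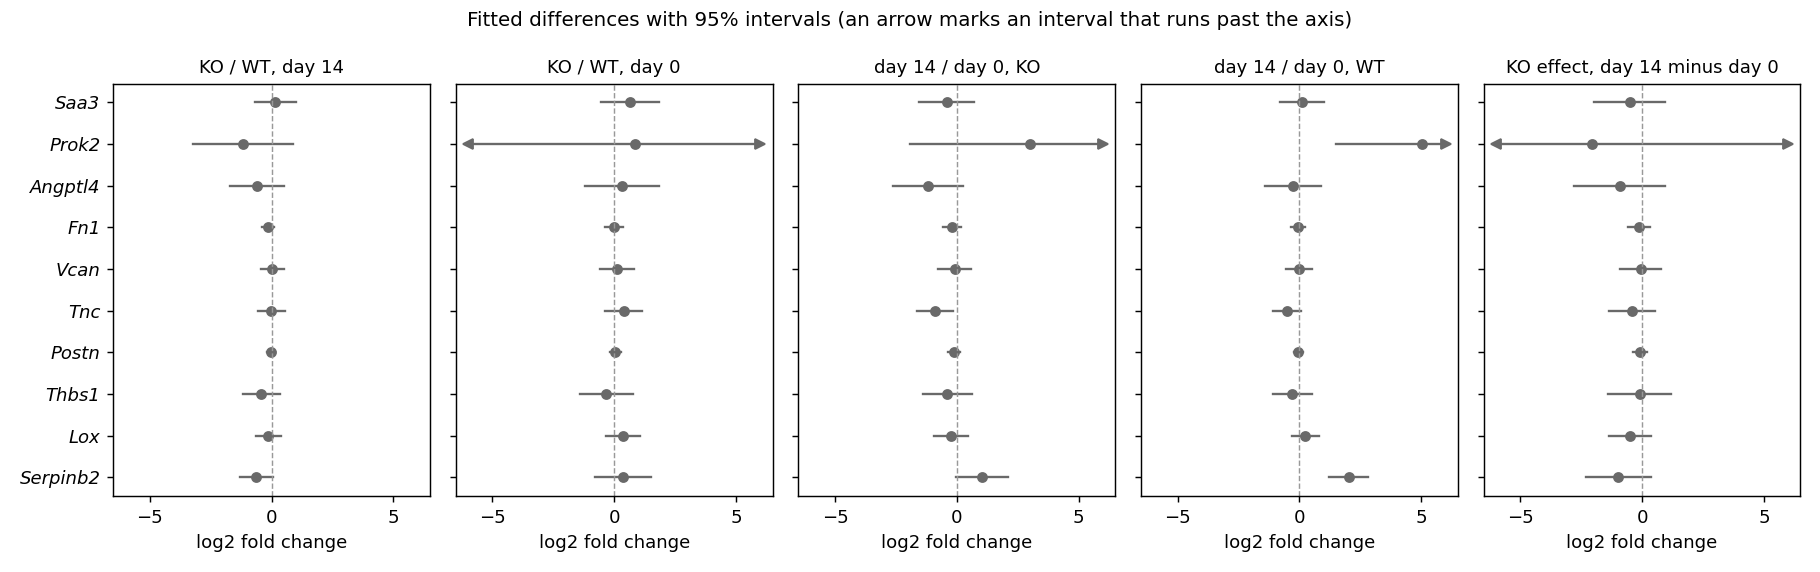
Fitted log2 fold changes of the 10 niche factors (points) with 95% intervals (lines), in 1 panel per comparison, all on the same axis. An arrow marks an interval that runs past the axis. Intervals are narrow for Postn and Fn1 and widest for Prok2. They lie clear of 0 for Serpinb2 and Prok2 between days in WT lungs and for Tnc between days in KO lungs.

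Among the inflammatory ligands, Saa3 (ENSMUSG00000040026, chr7:46711998-46715700, minus strand, GRCm38) encodes a serum amyloid A that is known to signal through TLR4 and to draw myeloid cells into the lung. It was measured at 6.79, 4.71, 3.95, 5.62 and 4.20 CPM in KO day 14 lungs, against 1.78 to 7.27 CPM with a median of 4.47 CPM in the 6 WT day 14 lungs. The KO day 0 libraries had 11.3 and 2.12 CPM, against 4.61, 5.14, 2.85 and 4.59 CPM in WT day 0 lungs. The highest and nearly the lowest Saa3 level of the series thus stood in the same group of 2, and all groups overlapped. The log2 fold change of KO over WT was 0.15 (SE 0.40, adjusted p = 0.951, edgeR) at day 14 and 0.65 (SE 0.55, adjusted p = 0.850) at day 0. The day 0 estimate was -1.01 without KO day 0 library 1, and that of day 14 over day 0 in KO lungs, -0.41 with all libraries, was 1.25 without it. About 4.15% of the 50-base stretches of Saa3 transcripts also occur in other genes.

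Prok2 (ENSMUSG00000030069, chr6:99711299-99726392, minus strand) encodes prokineticin 2, also known as Bv8, a neutrophil product that mobilises myeloid cells and promotes vessel growth. It lay at the edge of detection. Its counts were 8, 0, 4, 3 and 8 in KO day 14 lungs, and in WT day 14 lungs they ran from 1 to 57 with 72 in all. Day 0 lungs gave 1 and 0 counts in KO, and 0, 0, 0 and 1 in WT, where a count of 0 allows up to 0.110 CPM in KO and up to 0.102 CPM in WT libraries (3 counts of the total). Of the 72 counts in WT day 14 lungs, 57 came from library 6, which had 1.94 CPM where the next had 0.234 CPM.

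Summed over libraries, the ratio of Prok2 CPM of day 14 over day 0 was 47.6 in WT lungs (exact 95% interval from counting 8.28 to 1906), and 11.7 (1.80 to 493) without WT day 14 library 6. In KO lungs it was 9.37 (1.52 to 386). The ratio of KO over WT at day 14 was 0.446 (0.266 to 0.722) with all libraries and 1.81 (0.905 to 3.73) without library 6, so that library set the direction of the comparison of genotypes. These intervals cover counting error only and leave out the spread between libraries. They also take each read as independent, although 1 RNA molecule can give several counted reads. In the fit across all genes, with its spread between libraries, the adjusted p was 0.363 for day in WT, 0.730 for day in KO and 0.775 for KO over WT at day 14 (edgeR). An exact permutation test of log2 CPM between days in WT lungs gave p = 0.0190 (two-sided, smallest possible 0.00952).

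The neutrophil markers that could accompany Prok2 were all detected, 12 of 12. Their summed level ran from 215 to 775 CPM in KO day 14 lungs, from 238 to 668 CPM in WT day 14 lungs, from 221 to 290 CPM in KO day 0 lungs and from 152 to 258 CPM in WT day 0 lungs. Ltf and Lcn2 made up much of the day 0 sums, at 25.08 to 73.62 and 52.76 to 79.6 CPM in WT lungs. At day 14 Lcn2 ran from 42.03 to 62.99 CPM in WT lungs. S100a9 ran from 19.26 to 47.65 CPM at day 0 and from 48.5 to 236.8 CPM at day 14 in WT lungs. The sum thus mixes genes of unlike course. Library 6 of WT day 14 had 651 CPM of these markers, while library 3 of that group had 668 CPM with 8 Prok2 counts and KO day 14 library 5 had 775 CPM with 8. The defining marker Ly6g was at 0 in at least 1 WT day 0 library and did not exceed 1.60 CPM in any. The part of these cells in the Prok2 and Serpinb2 values was not tested. An antisense gene, Gm26748, overlaps Prok2 but averaged 0.00745 CPM.

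Angptl4 (ENSMUSG00000002289, chr17:33773750-33781830, minus strand) encodes a secreted inhibitor of lipoprotein lipase that can also open endothelial junctions, and it is a target of hypoxia and of PPAR signalling. It had 15.9, 10.5, 17.8, 37.1 and 67.9 CPM in KO day 14 lungs, and in WT day 14 lungs the lowest, median and highest values were 18.6, 32.3 and 95.2 CPM. Day 0 lungs had 77.4 and 57.5 CPM in KO, and 54.9, 57.6, 54.3 and 50.9 CPM in WT. The WT day 0 libraries were thus close together, with a coefficient of variation of 5.04%, whereas those of day 14 were spread, at 78.9% in KO and 67.6% in WT. This description was made after the values were seen, and the difference in spread was not tested.

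The log2 fold change of Angptl4 was -0.62 (SE 0.51) for KO over WT at day 14, which is 0.653-fold with a 95% interval from 0.304 to 1.40 (adjusted p = 0.776, edgeR). It was -1.16 without KO day 14 library 5 and -0.26 without WT day 14 library 6, the lowest and highest of the alternatives, none of which called it. Between days it was -1.19 (SE 0.66, adjusted p = 0.624) in KO lungs and -0.26 (SE 0.53, adjusted p = 0.906) in WT lungs. For KO over WT at day 0 it was 0.31 (SE 0.71, adjusted p = 0.96, edgeR), in a fit that shares its spread with the day 14 libraries. An edgeR fit of the 2 day 0 groups only gave the same 0.31 with an SE of 0.11 (adjusted p = 0.473). KO day 14 libraries 1 to 4 lay below both KO day 0 libraries, and library 5, at 67.9 CPM, lay between them. Adipocyte markers, from a tissue rich in Angptl4, were all detected (8 of 8) and summed to 49.0 to 108 CPM in KO day 14, 52.6 to 111 CPM in WT day 14, 60.5 and 150 CPM in KO day 0 and 42.5 to 55.9 CPM in WT day 0 lungs. The WT day 14 library with the highest Angptl4 level had 60.2 CPM of them. WT day 14 library 5 had 111 CPM of these markers with 71.4 CPM of Angptl4, and KO day 14 library 1 had 108 CPM with 15.9 CPM. The part of adipocytes in the Angptl4 values was not tested.

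**Figure D3:**
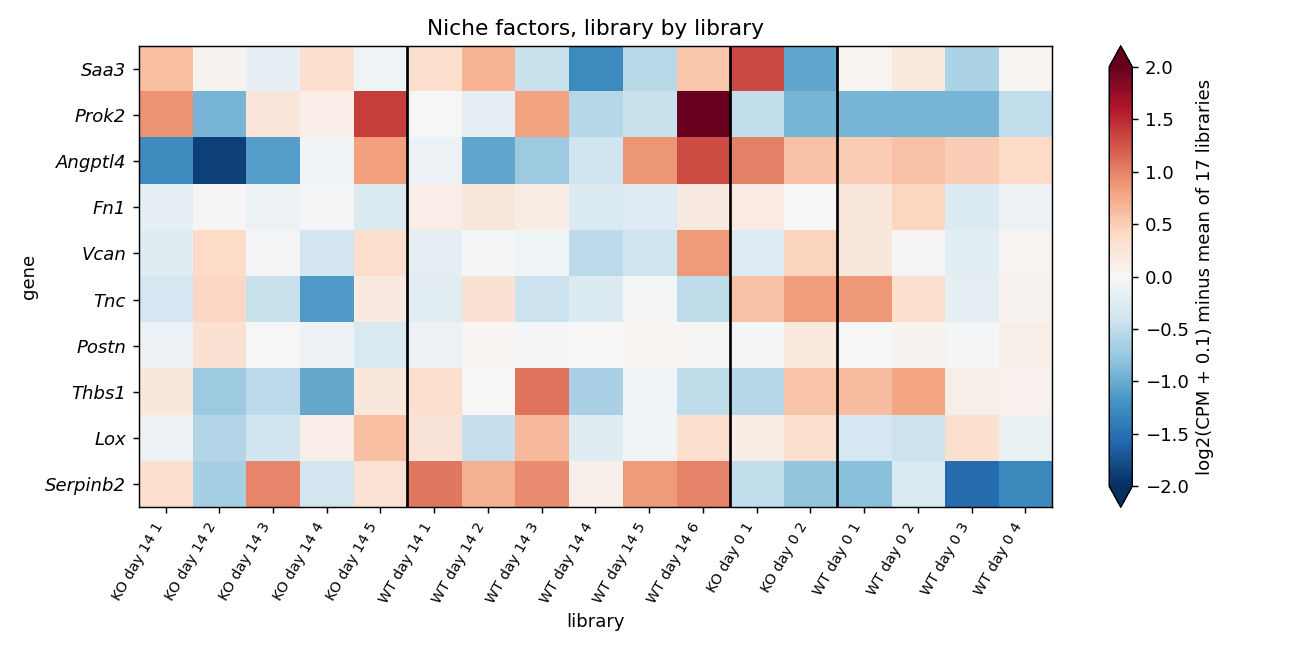
Each niche factor in each of the 17 libraries, as log2(CPM + 0.1) minus the mean of that gene over all libraries (colour, capped at ±2). Black lines separate KO day 14, WT day 14, KO day 0 and WT day 0. Serpinb2 is above its mean in all 6 WT day 14 columns and below it in all 6 day 0 columns, and no column is high or low for all 10 genes.

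Among the matrix proteins, fibronectin 1 (Fn1, ENSMUSG00000026193, chr1:71585520-71653200, minus strand) is the ligand to which bone marrow progenitors are known to attach in the lung niche. The mean level was 565 ± 45.7 CPM in KO day 14 and 627 ± 95.9 CPM in WT day 14 lungs, with 646 ± 52.7 CPM in KO day 0 and 653 ± 145 CPM in WT day 0 lungs. The 5 KO day 14 libraries, from 507 to 622 CPM, lay inside the WT day 14 range of 501 to 713 CPM. KO over WT was 0.900-fold at day 14 (95% interval 0.751 to 1.08, adjusted p = 0.772, edgeR) and 0.988-fold at day 0 (0.763 to 1.28, adjusted p = 0.994).

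Periostin (Postn, ENSMUSG00000027750, chr3:54361109-54391037, plus strand) is a stromal matricellular protein that is known to support colonisation of the lung by mammary tumour cells. Its mean level was 367 ± 59.7 CPM in KO day 14 and 374 ± 15.6 CPM in WT day 14 lungs, and 398 ± 44.8 CPM in KO day 0 and 386 ± 17.7 CPM in WT day 0 lungs. These were the tightest estimates among the members. KO over WT was 0.982-fold at day 14 with a 95% interval from 0.875 to 1.10, and 1.03-fold at day 0 with an interval from 0.875 to 1.22. Day 14 over day 0 was 0.922-fold (0.787 to 1.08) in KO lungs and 0.969-fold (0.857 to 1.10) in WT lungs. Differences in Postn larger than these bounds lie outside the 95% intervals.

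Tenascin C (Tnc, ENSMUSG00000028364, chr4:63959785-64047015, minus strand) is a large glycoprotein of remodelled matrix and of stem cell niches. It had 23.3, 39.3, 21.8, 13.5 and 33.5 CPM in KO day 14 lungs, against 44.4 and 53.2 CPM in KO day 0 lungs. In WT lungs it ran from 20.7 to 36.5 CPM at day 14 with a median of 24.9 CPM, against 54.0, 37.0, 26.0 and 31.1 CPM at day 0. The KO ranges did not overlap, while the WT ranges did.

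Day 14 over day 0 was 0.537-fold in KO lungs (95% interval 0.325 to 0.888, log2 -0.90, SE 0.34), with an unadjusted p of 0.0189 and an adjusted p of 0.436 by edgeR, which is not a call. It was 0.710-fold in WT lungs (0.477 to 1.06, adjusted p = 0.597). Groups that do not overlap are common with 2 libraries on 1 side: 11.8% of all genes tested had KO day 14 and KO day 0 ranges apart, and Tnc was the only 1 of the 10 members. The exact permutation p in KO lungs was 0.0952, the smallest that 5 libraries against 2 allow. It restates that the ranges lie apart. KO over WT was 0.995-fold at day 14 (0.679 to 1.46, adjusted p = 0.996) and 1.32-fold at day 0 (0.776 to 2.23, adjusted p = 0.864).

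The 10 fibroblast markers, all detected, summed to 2892 to 4473 CPM in KO day 14, 3094 to 3655 CPM in WT day 14, 4079 and 4399 CPM in KO day 0 and 3386 to 4141 CPM in WT day 0 lungs. KO day 14 library 2, with the highest sum of its group, also had its highest Tnc, Postn, Fn1 and Vcan levels. The same library had the lowest Lox level of its group, 60.8 CPM, and its Thbs1 level, 149 CPM, was below the group median of 171 CPM. The part of fibroblasts in these values was not tested.

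Versican (Vcan, ENSMUSG00000021614, chr13:89655312-89742509, minus strand) is a large hyaluronan-binding proteoglycan, which myeloid cells are known to supply in the lung niche. Its counts gave 8.09, 12.6, 9.30, 7.31 and 12.2 CPM in KO day 14 lungs, and 6.61 to 17.3 CPM with a median of 8.65 CPM in WT day 14 lungs. Day 0 lungs had 7.94 and 13.03 CPM in KO, and 11.2, 9.74, 8.26 and 9.92 CPM in WT. All groups overlapped, and library 6 of WT day 14 stood above the rest of its group, the next of which had 9.35 CPM. KO over WT was 1.02-fold at day 14 (95% interval 0.730 to 1.43, adjusted p = 0.982, edgeR), and 1.07-fold at day 0 (0.663 to 1.73, adjusted p = 0.974). The 9 monocyte and interstitial macrophage markers, all detected, summed to 348 to 444 CPM in KO day 14, 342 to 445 CPM in WT day 14, 316 and 370 CPM in KO day 0 and 322 to 418 CPM in WT day 0 lungs. The highest sum, 445 CPM, was that of WT day 14 library 6. KO day 14 library 3 had 444 CPM of these markers with 9.30 CPM of Vcan, and KO day 14 library 5 had 348 CPM with 12.2 CPM. The part of these cells in the Vcan values was not tested.

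The deposited FPKM of Vcan did not follow its counts. Counts per 1000000 of the library total (without TMM scaling), divided by FPKM, give the length in kilobases by which a gene's counts were divided in a library. This implied length is not that of a transcript: for Saa3 it ran from 362.5 to 390.4 bases, below the 494 bases of its shortest annotated transcript. For Vcan this ran from 2588 bases in KO day 14 library 2 to 8332 bases in KO day 14 library 1, a 3.22-fold range with a median of 4639 bases. For the other 7 members with a value in every library, the range was 1.02-fold (Tnc) to 1.20-fold (Fn1). Serpinb2, with few counts and a value in only 10 libraries, ran from 677.4 bases in KO day 14 library 4 to 1816 bases in WT day 14 library 2. That is a 2.68-fold range. Vcan has 9 annotated transcripts, of 294 to 12427 bases, and an FPKM for the gene depends on how counts were shared among them. Accordingly, KO day 14 library 2 had 4.77 FPKM and library 1 had 0.980 FPKM, a far larger gap than their 12.6 and 8.09 CPM. Which transcripts were present was not tested, as the files hold values per gene.

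**Figure D4:**
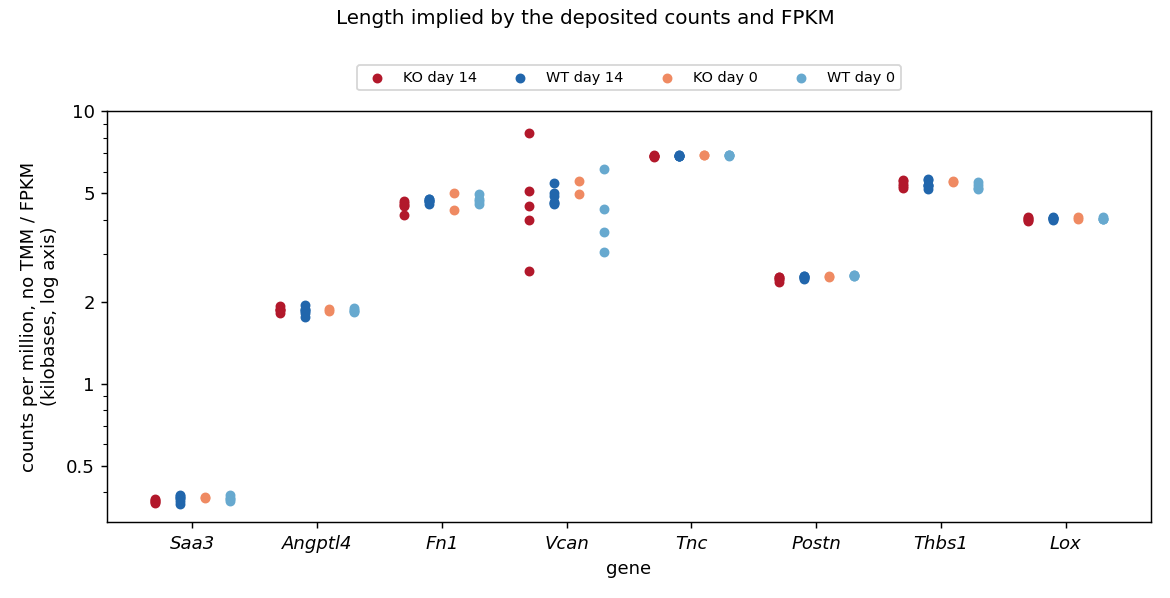
Length implied by dividing counts per 1000000 of the library total, without TMM scaling, by FPKM (kilobases, log axis) for the 8 niche factors with a value in all 17 libraries. Points are libraries of KO day 14, WT day 14, KO day 0 and WT day 0 lungs. Vcan spreads from 2588 to 8332 bases within the KO day 14 group, while the other genes stay within a 1.20-fold range.

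Thrombospondin 1 (Thbs1, ENSMUSG00000040152, chr2:118111876-118127133, plus strand) activates latent TGF-beta and binds CD36 and CD47, and myeloid cells that make it are known to render the lung refractory to metastasis. It had 290, 149, 171, 121 and 290 CPM in KO day 14 lungs, against a lowest, median and highest level of 157, 241 and 521 CPM in WT day 14 lungs. Day 0 lungs had 167 and 368 CPM in KO, and 380, 427, 268 and 263 CPM in WT. The 4 groups overlapped. KO over WT was 0.746-fold at day 14 (95% interval 0.442 to 1.26, adjusted p = 0.776, edgeR), and 0.800-fold at day 0 (0.378 to 1.70, adjusted p = 0.937). Day 14 over day 0 was 0.763-fold (0.378 to 1.54) in KO and 0.819-fold (0.473 to 1.42) in WT lungs. Without KO day 0 library 1 the day 0 log2 estimate of KO over WT was 0.15, in place of -0.32.

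Lox (ENSMUSG00000024529, chr18:52516067-52529867, minus strand) encodes lysyl oxidase, the copper enzyme that crosslinks collagen and elastin. Its mean level was 90.7 ± 30.7 CPM in KO day 14 and 99.5 ± 27.9 CPM in WT day 14 lungs, and 107 ± 8.79 CPM in KO day 0 and 84.0 ± 20.9 CPM in WT day 0 lungs, with overlap between all groups. KO over WT was 0.910-fold at day 14 (95% interval 0.642 to 1.29, adjusted p = 0.913, edgeR), and 1.28-fold at day 0 (0.782 to 2.09, adjusted p = 0.877). Day 14 over day 0 was 0.843-fold (0.524 to 1.36) in KO and 1.18-fold (0.816 to 1.72) in WT lungs.

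Serpinb2 (ENSMUSG00000062345, chr1:107511423-107535478, plus strand) encodes plasminogen activator inhibitor 2, which restrains urokinase and is known to shield tumour cells from plasmin. Its level was 0.761, 0.333, 1.25, 0.432 and 0.742 CPM in KO day 14 lungs, against 0.388 and 0.298 CPM in KO day 0 lungs. In WT lungs it ran from 0.639 to 1.32 CPM at day 14 with a median of 1.18 CPM, against 0.283, 0.457, 0.136 and 0.179 CPM at day 0. Every WT day 14 library was above every WT day 0 library, which held for 2.58% of all genes tested in either direction and for 1.20% in this one. The KO ranges overlapped, with 1 KO day 14 library, at 0.333 CPM, between the 2 of day 0.

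Day 14 over day 0 in WT lungs was 4.06-fold for Serpinb2 (95% interval 2.34 to 7.06, log2 2.02, SE 0.38). Its unadjusted p was 4.51e-05 and its adjusted p over all genes was 0.126 by edgeR, which is not a call. DESeq2 gave a log2 value of 2.04 and called it (adjusted p = 0.00149), and so did edgeR without WT day 14 library 5 (2.01, adjusted p = 0.0484). Over the single libraries left out, the adjusted p ran from 0.0484 to 0.387, and limma-voom gave 0.145. On the scale of log2(FPKM + 1), which understates changes of low genes, the estimate with no filter was 0.55 (adjusted p = 0.334, limma). The FPKM of Serpinb2 also did not keep a constant ratio to its counts. An exact permutation test gave p = 0.00952 (two-sided), the smallest that 6 libraries against 4 allow. Ranges that lie apart give this p, so it adds nothing to the separation of the ranges.

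In KO lungs, day 14 over day 0 was 2.06-fold for Serpinb2 (0.988 to 4.30, adjusted p = 0.557, edgeR). The KO and WT differences between days were themselves not distinguished (interaction log2 -0.98, SE 0.64, adjusted p = 0.988). KO over WT at day 14 was 0.650-fold (0.410 to 1.03), with an adjusted p of 0.587 and overlapping ranges. These values rest on few reads, with 8 to 40 counts per library in KO day 14, 23 to 44 in WT day 14, 8 and 11 in KO day 0 and 4 to 15 in WT day 0 lungs. Serpinb2 also shares 10.4% of its 50-base stretches with Serpinb10, a gene that overlaps it on the same strand at a mean of 1.74 CPM, so reads could have been split between both.

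Genes around the niche factors were taken from 11 lists (crosslinking enzymes, integrin receptors, versican partners, matricellular relatives, angiopoietin-like genes and PPAR targets, thrombospondins and their receptors, plasminogen activation, prokineticins and colony-stimulating factors, the serum amyloid and TLR4 axis, other secreted niche factors, and hypoxia targets). Of 123 measured genes in them, 113 could be tested, and edgeR called 0 of 113 in each of the 5 comparisons. At an unadjusted p under 0.05 there were 16 for KO over WT at day 14 (14.2%, against 8.95% of all genes), 12 at day 0 (10.6%, against 6.74%), 17 between days in KO lungs (15.0%, against 9.05%), 20 between days in WT lungs (17.7%, against 9.06%) and 7 for the interaction (6.20%, against 4.55%). limma-voom called none of them. DESeq2 called 3, 0, 1, 1 and 0 in the same order, against 0.558%, 0.133%, 0.539%, 0.669% and 0.047% of the genes it tested. The genes of a list are not independent of each other. The lists were also chosen with earlier results of these data known, so these shares are a description and cannot show an excess.

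The smallest adjusted p among these genes for KO over WT at day 14 was that of Cxcl12, the stromal chemokine for CXCR4-bearing cells. Its mean level was 371 ± 33.5 CPM in KO day 14 and 294 ± 30.8 CPM in WT day 14 lungs (log2 0.34, SE 0.08, adjusted p = 0.116 by edgeR and 0.0120 by DESeq2). Its day 0 means were 455 ± 43.4 CPM for KO and 365 ± 26.9 CPM for WT lungs (log2 0.32, adjusted p = 0.640). Cxcl12 was the list gene with the smallest adjusted p between days in WT lungs too (log2 -0.31, adjusted p = 0.227 by edgeR and 0.0490 by DESeq2). Adamts5, a protease that cleaves versican, averaged 31.9 ± 1.71 CPM in KO day 14 and 25.5 ± 2.78 CPM in WT day 14 lungs (log2 0.32, SE 0.08, adjusted p = 0.168 by edgeR and 0.0308 by DESeq2). Between days in KO lungs the Adamts5 estimate was log2 0.49 (SE 0.11), with an adjusted p of 0.211 by edgeR and of 0.0157 by DESeq2. Flt1, the VEGF receptor 1 of endothelium and of niche-forming progenitors, averaged 371 ± 19.2 CPM in KO day 14 and 429 ± 24.9 CPM in WT day 14 lungs (log2 -0.21, SE 0.05, adjusted p = 0.188 by edgeR and 0.0316 by DESeq2).

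None of the crosslinking enzymes that act beside Lox was called. Of the 11 in that list, 3 had positive log2 fold changes for KO over WT at day 14 (median -0.11) and 10 at day 0 (median 0.23), and between days 0 were positive in KO lungs (median -0.14) and 7 in WT lungs (median 0.08). Loxl1, which crosslinks elastin, averaged 103 ± 30.7 CPM in KO day 14 and 76.6 ± 7.53 CPM in WT day 14 lungs (log2 0.43, SE 0.16, adjusted p = 0.441, edgeR). Among thrombospondins and their receptors, Thbs3 averaged 82.5 ± 8.24 CPM in KO day 14 and 98.9 ± 5.64 CPM in WT day 14 lungs (log2 -0.26, SE 0.07, adjusted p = 0.249). In the plasminogen list Plaur, the urokinase receptor, was at 41.4 ± 10.1 CPM in KO day 14 and 62.1 ± 26.5 CPM in WT day 14 lungs (log2 -0.59, SE 0.27, adjusted p = 0.551). Prokr1, a receptor for prokineticins, was at 0.591 ± 0.254 CPM in KO day 14 and 1.11 ± 0.330 CPM in WT day 14 lungs (log2 -0.88, SE 0.29, adjusted p = 0.390).

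S100a8, Csf3r and Il1b of these lists had large but scattered estimates between days. S100a8, an alarmin of neutrophils that is known to induce Saa3 in the lung, averaged 64.0 ± 41.2 CPM in WT day 14 and 15.5 ± 5.56 CPM in WT day 0 lungs (log2 2.05, SE 0.68, adjusted p = 0.379, edgeR). In KO lungs S100a8 averaged 55.6 ± 47.7 CPM at day 14 and 14.6 ± 5.22 CPM at day 0 (log2 1.93, SE 0.92, adjusted p = 0.560). Csf3r, the G-CSF receptor of neutrophils, had a log2 fold change between days of 1.35 (adjusted p = 0.397) in WT and 1.38 (adjusted p = 0.549) in KO lungs, and Il1b had 1.12 (adjusted p = 0.434) in WT and 1.63 (adjusted p = 0.415) in KO lungs. S100a8 and Csf3r are also in the neutrophil marker list given with Prok2. Saa3 itself had between-day estimates of 0.09 in WT and -0.41 in KO lungs.

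Libraries were then compared after each group's mean was taken away, to see which genes followed each member across the 17 libraries. Thbs1 was most closely followed by Areg (Pearson r 0.96), Ptp4a1 (0.95) and Adamts1 (0.94). Tnc was followed by the collagen gene Col1a1 (0.90), Kdelr3 (0.89) and Tbca (0.89), and Postn by Pdgfd (0.90), Colec12 (0.87) and Ltbp1 (0.87). Fn1 was followed by Zranb3 (0.92), Knstrn (0.91) and Cdca2 (0.87), Lox by Sesn1 (0.87), Pxdc1 (0.86) and Fgg (0.86), and Angptl4 by Nek4 (0.88), Rps12 (0.87) and A4galt (0.87). The lower members had Gm36948 (0.88), Foxp3 (0.88) and Olfml2a (0.88) for Serpinb2, Myc (0.86), Wfdc17 (0.85) and 4933406B17Rik (0.85) for Prok2, Micall2 (0.83) and Appl1 (0.73) for Vcan, and Sms-ps, BC037039 and 9430002A10Rik (0.80, 0.80 and 0.79) for Saa3. Each r is among the highest over 19557 genes. The libraries differ in total counts, differences in their handling are not known, and each r is a description only.

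Of the 45 pairs of members, 31 had a positive r, and none had adjusted p-values under 0.05 for both Pearson's r and Spearman's rho, with 100000 permutations within groups. The pair with the smallest p was Saa3 and Fn1, with r = 0.60 (permutation p = 0.00328, adjusted 0.148) and rho = 0.65 (permutation p = 0.00371, adjusted 0.167), and r was 0.53 without the 2 libraries farthest from the median of Saa3. The largest negative r was that of Postn and Lox, -0.63 (permutation p = 0.0130, adjusted 0.293), with a rho of -0.54 (permutation p = 0.0327, adjusted 0.383), and it was -0.35 without the 2 libraries farthest from the median of Postn.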

How the data were processed

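RNA sequencing of total RNA from whole lung was measured in 17 libraries, grouped by the genotype and day in their labels. The authors deposited estimated counts per gene for each library, in which 13.9% to 17.1% of the genes have a value that is not a whole number, and FPKM values for all libraries, which the authors scaled by transcript length and library size. STAR 2.5.3, RSEM 1.3.0, limma 3.38.3 and the build mm10 are named in the submitters' processing notes, with no role or order, and the annotation and strand setting are not given in the sources used here. The members, the gene lists and the tests were chosen with earlier results of these data known.

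Counts were rounded to whole numbers. Genes with low counts were removed with filterByExpr by group, libraries were scaled by TMM (factors 0.977 to 1.01), and 1 edgeR 4.0.16 quasi-likelihood fit in R 4.3.3 held all 4 groups, so that they share 1 estimate of the spread. Tests are two-sided, p-values were adjusted by the Benjamini-Hochberg method over 19557 genes, and a call is an adjusted p under 0.05. Each SE is the size of the log2 estimate over the root of its F statistic, and 95% intervals use the degrees of freedom of the fit. Totals were 20607760 to 35743766 counts, and intervals from counts cover counting error only. Alternatives were DESeq2 1.42.0, limma-voom (limma 3.58.1), DESeq2's size factors in edgeR, no filter, fits of 2 groups only, log2(FPKM + 1) and log2(FPKM + 0.1) with limma, and each library left out in turn. A filter of FPKM of at least 1 in 2 libraries removed Serpinb2 and Prok2 from the filtered FPKM fits. No pair of libraries was identical. The fit was also run on simulated counts with known changes. Those counts had the spread typical of a gene's level, and each member varied more than most genes near its level. That run therefore does not show whether changes in the members would be found.

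All 10 members are described. From the surrounding lists, genes called were to be named and otherwise up to 3 with the smallest p per list, and genes most alike are the 3 with the highest Pearson r of log2 CPM (prior count 2), of which 1 is not reported here. Coordinates are from GENCODE M21 (GRCm38). Fn1, Vcan, Tnc, Thbs1 and Prok2 each overlap a gene on the opposite strand, and reads of the 2 cannot be told apart without a stated strand setting; of these the highest, Gm4117 at Vcan, averaged 1.21 CPM.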

Additional observations from a re-analysis of the deposited data

Results flagged for a closer look

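Of 30 sets of 4 to 6 libraries of 1 gene and group examined, 3 had a library whose distance to its nearest neighbour took up more of the group's range than Dixon's limit at 95%, which chance alone crosses in about 1 of 20 sets. Prok2 had 1.94 CPM in WT day 14 library 6, where the next library had 0.234 CPM. Vcan stood apart in the same library, at 17.3 CPM against 9.35 CPM in the next. Prok2 in WT day 0 library 4 had 0.0358 CPM, which is 1 count where the other 3 libraries had 0. In such a set the gap fills the whole range by construction, and the rate of 1 in 20 does not apply to it.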

How the results depend on the processing

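Each of the 50 member results was recomputed under the alternatives, 1220 values in all. Of these, 1144 kept their direction and stayed uncalled (3 of them Prok2 values to which DESeq2 gave no adjusted p), 74 (in 22 results) had the opposite direction and were not called, and 2 were called in the same direction. Both calls were of Serpinb2 between days in WT lungs, where the number of members called was 1 with DESeq2 and 1 without WT day 14 replicate 5, and 0 without each other replicate. The cause was not tested. The log2 values of opposite direction follow, as KO over WT or day 14 over day 0. With FPKM + 0.1, Fn1 was 0.03 and Vcan -0.27 for KO over WT at day 0, Saa3 was -0.04 between days in WT, and Saa3 was 0.05 and Vcan 0.13 between days in KO lungs. The interaction was then 0.10 for Saa3, 0.44 for Vcan and 0.06 for Thbs1. With FPKM + 1, filtered or not, the same 8 results were 0.03, -0.19, -0.03, 0.02, 0.12, 0.05, 0.33 and 0.06. With limma-voom, Fn1 was 0.01 at day 0, Saa3 was -0.07 between days in WT and 0.00 in KO lungs, and the interaction was 0.07 for Saa3, 0.01 for Vcan and 0.01 for Thbs1.

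Leaving out 1 replicate at a time moved KO over WT at day 14 between -0.03 and 0.33 for Saa3, -1.59 and 0.85 for Prok2, -0.07 and 0.28 for Vcan, -0.20 and 0.16 for Tnc, and -0.13 and 0.03 for Postn. At day 0 it ran from -1.01 to 1.40 for Saa3, -1.54 to 2.41 for Prok2, -0.12 to 0.11 for Fn1, -0.29 to 0.42 for Vcan, -0.07 to 0.16 for Postn and -0.99 to 0.15 for Thbs1. Between days it ran in KO lungs from -1.17 to 1.25 for Saa3, -0.41 to 0.31 for Vcan and -0.86 to 0.28 for Thbs1, and in WT lungs from -0.09 to 0.26 for Saa3, -0.16 to 0.07 for Fn1 and -0.27 to 0.07 for Vcan. The interaction ran from -1.26 to 1.15 for Saa3, -3.58 to 0.36 for Prok2, -0.39 to 0.33 for Vcan, -0.19 to 0.04 for Postn and -0.57 to 0.57 for Thbs1. Where 1 KO day 0 library was left, it was assumed to vary like the other groups.

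Over all genes, the numbers called were 21 (KO over WT, day 14), 5 (day 0), 0 (days, KO), 0 (days, WT) and 0 (interaction) with edgeR. In that order they were 109, 26, 93, 113 and 9 with DESeq2, 16, 3, 0, 1 and 0 with limma-voom, 20, 5, 0, 3 and 0 with DESeq2's size factors in edgeR, and 24, 5, 0, 5 and 0 with no filter. They were 16, 5, 4, 0 and 3 with FPKM + 0.1, 16, 6, 4, 0 and 4 with FPKM + 1, and 18, 17, 19, 0 and 7 with FPKM + 1 and no filter. Fits of 2 groups only called 17, 14, 2 and 0. With 1 replicate left out the ranges were 15 to 27, 2 to 7, 0 to 12, 0 to 52 (52 without WT day 14 replicate 5) and 0 to 1. Few counts limit Prok2 and Serpinb2, and 2 KO day 0 libraries limit each comparison that uses them. No paired analysis was possible because the labels give the groups no shared replicate numbers.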
